A study of Sus scrofa with 95 samples.

Results

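The 10 genes described here encode proteins that take up heme and hemoglobin, break heme down and move or store the iron it releases: HMOX1, BLVRA, BLVRB, CD163, HPX, SLC48A1, TFRC, FTL, SLC40A1 and HAMP. They were chosen by symbol, and all 10 of 10 were found among the 35670 genes of the count table. Messenger RNA was sequenced in 5 organs of 19 infant swine of 5 to 10 kg, which gave 95 libraries. The organs were heart (left ventricle), terminal ileum, kidney cortex, liver and lung (right lower lobe). The control arm held 8 animals under anesthesia only (4 male, 4 female). The CPB arm held 7 animals (4 male, 3 female) that underwent cardiopulmonary bypass, in which a machine replaces the pumping of the heart and the gas exchange of the lungs, with deep hypothermic circulatory arrest (CPB/DHCA) of 75 min. The third arm held 4 animals (2 male, 2 female) with the same bypass and arrest and 75 mg of Linrodostat, an inhibitor of the tryptophan-degrading enzyme IDO1. The design has no arm with Linrodostat and no bypass. Kidney and ileum were taken just before euthanasia and the other organs just after it, and blood was left to drain from all of them. No strain, genotype or time of harvest after arrest is given in the sources used here.

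Bypass circuits damage red blood cells, and the question here is how genes that handle free hemoglobin, heme and iron stood in each organ. Free hemoglobin is bound by haptoglobin and taken up by macrophages through CD163, while free heme is bound by hemopexin (HPX), which the liver secretes. Inside cells heme oxygenase 1 (HMOX1) opens the heme ring and releases iron, carbon monoxide and biliverdin, which biliverdin reductases turn into bilirubin. The iron is stored in ferritin, of which FTL is the light chain, or leaves through ferroportin (SLC40A1), which the liver hormone hepcidin (HAMP) removes from the cell surface.

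On Sscrofa11.1, the RefSeq annotation places CD163 at chr5:63300200-63334497, SLC48A1 at chr5:78141220-78150584, HAMP at chr6:44785863-44787303, BLVRB at chr6:48715540-48728433, FTL at chr6:54231121-54232756, HPX at chr9:3288288-3297051, TFRC at chr13:133976765-133997554, SLC40A1 at chr15:94140635-94161793 and BLVRA at chr18:51131576-51185493. It gives HMOX1 no chromosome.

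Libraries held 19956859 to 53627723 counts, with heart the shallowest organ (19956859 to 27219451 counts). All heart libraries carry batch label 2 and all others batch label 1, so an organ difference that involves heart and a batch difference cannot be told apart, whereas comparisons of arms lie within 1 label. Some libraries carried transcripts of another organ or were low in some of their own. The ileum of CPB animal 19 had 8.04 CPM of FABP6, an ileal bile acid carrier, where the other CPB ilea had 1220 or more. It had 0.0951 CPM of FABP2 (CPM, a library's counts scaled to a common total, is the unit of every level below). Other intestinal transcripts were present in it. The sum of 9 intestinal marker genes was 1410 CPM there, the lowest of its arm (median 2500), and the intestinal gene VIL1 was lowest in CPB animal 25. The kidney of Linrodostat animal 12 had 251 CPM of albumin (ALB), where the next of its arm had 0.284. It also had 91.9 CPM of the heart muscle gene MYH7, where the next of its arm had 0.355. The highest CPB kidneys had 40.8 and 39.5 CPM of MYH7. The kidney gene UMOD reached 34.1 CPM in the lung of CPB animal 19, 30.6 in another CPB lung and 18.1 in a Linrodostat lung, against at most 0.0668 in control lungs. FABP6 was 52.0 to 197 CPM in the 4 Linrodostat livers, 1.86 to 11.1 in the CPB livers and 1.60 to 44.9 in the control livers. The liver of control animal 4 had 8150 CPM of the hemoglobin gene HBB, where the next control had 495.

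In control animals the 10 genes differed widely in where they were found. HPX and HAMP were liver genes: HPX had a median of 8860 CPM in liver, 15.7 in kidney and under 1 in ileum, lung and heart, and HAMP had 361 CPM in liver and 1.08 in ileum, the next organ. FTL was abundant everywhere, from a median of 1220 CPM in heart to 8420 in liver. SLC48A1, which carries heme out of lysosomes, was the most even, at 40.7 to 58.7 CPM in 4 organs and 20.7 in ileum. Levels are counts that are not divided by transcript length, so they are compared between organs for 1 gene and not between genes.

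Organs were ordered by their control medians of log2 CPM, and each organ was compared with the next in the 8 control animals by an exact 2-sided sign-flip permutation test on log2 CPM, paired by animal. Of 40 such neighbours, 23 differed at an adjusted p under 0.05, where the smallest exact p that 8 pairs allow is 0.007812. For HMOX1 the order was lung (260), liver (167), kidney (63.2), ileum (19.7) and heart (5.19). Lung and liver did not pass (exact permutation p = 0.1328, adjusted 0.1714, lung higher in 6 of 8 animals), and the 3 lower steps did. CD163 was highest in lung (407), then liver (163), and both steps down to heart (47.4) passed in 8 of 8 animals, whereas heart, ileum (32.4) and kidney (20.0) did not separate. BLVRB fell from liver (161) to kidney (91.4), lung (33.3), heart (14.7) and ileum (7.12), and all 4 steps passed. For BLVRA, kidney (26.7) and liver (24.0) did not separate, and lung (17.7) stood below liver and above heart (10.1), which did not separate from ileum (7.65). The iron exporter SLC40A1 was highest in liver (287), followed by heart (59.3), kidney (42.8), lung (34.1) and ileum (11.7), with kidney and lung the only neighbours that did not pass. For the transferrin receptor TFRC, only the step from kidney (68.6) to ileum (32.4) passed among liver (109), heart (86.8), kidney, ileum and lung (23.6). FTL stepped down from liver to kidney (6730), lung (1820) and ileum (1270), and ileum and heart did not separate. For SLC48A1 only liver (40.7) to ileum passed. For HPX the 2 steps from liver through kidney to ileum passed, as did the 2 for HAMP from liver through ileum to heart (0.277).

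**Figure D1:**
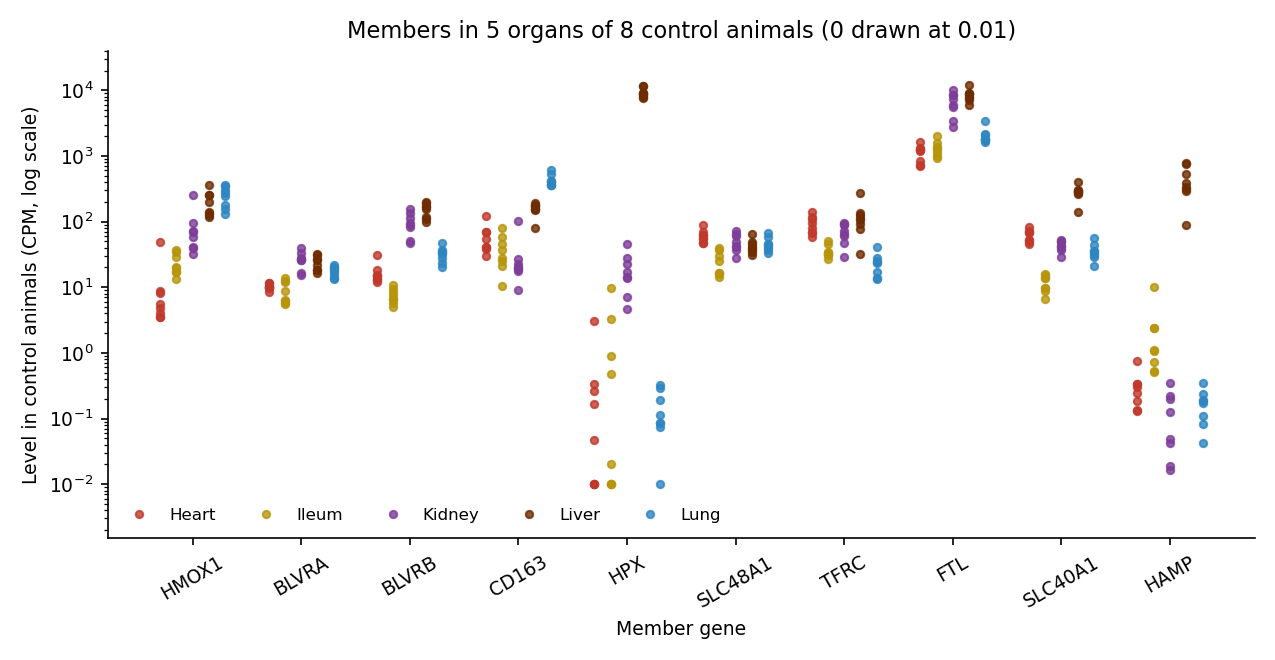
Level of each member (CPM, log scale) in each of 8 control animals, by organ; each point is a library, and values of 0 are drawn at 0.01. HPX and HAMP lie highest in liver, with medians of 8860 and 361 CPM, and FTL lies at 711 CPM or more in every control library.

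Bypass with arrest went with higher HMOX1 in kidney, heart and liver. The test was edgeR's quasi-likelihood test within each organ, with Benjamini-Hochberg adjustment over all genes tested there, and a gene is said to rise or fall where the adjusted p was under 0.05. Log2 fold changes are given ± their standard error. Of the 49 pairs of member and organ that could be tested, 6 passed, 5 higher and 1 lower. HPX in heart was too low to be tested. The 6 were HMOX1 in heart, kidney and liver, CD163 in heart and FTL in liver, which rose, and TFRC in kidney, which fell. Over all genes tested, 6.39% rose and 5.53% fell in heart, 11.3% and 9.86% in kidney, 15.6% and 11.3% in liver, 2.08% and 2.62% in lung, and 0.0% and 0.0% in ileum. The members called were 2 of 10 in kidney and 2 of 10 in liver, near or below the share of all genes in either direction, and 2 of 9 in heart, above it. The median log2 fold change of the members was 0.33 in kidney, 0.30 in ileum, 0.23 in lung, -0.02 in liver and -0.11 in heart, where that of all genes was -0.03, -0.02, 0.01, -0.03 and -0.02.

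Kidney held the steepest HMOX1 difference. The 8 control kidneys had 32 to 254 CPM (median 63.2), the 7 CPB kidneys 193 to 3210 CPM (median 1200), and the 4 Linrodostat kidneys 4210, 2680, 3700 and 467 CPM. Of the CPB kidneys 6 of 7 lay above every control, the exception being animal 11 at 193 CPM, and 7 of 8 controls lay below every CPB kidney, the exception being animal 15 at 254 CPM. The log2 fold change of CPB against control was 4.23 ± 0.60 (edgeR, adjusted p = 0.000129), a fold of 18.8.

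In heart, HMOX1 was 3.5 to 49.4 CPM in controls (median 5.19), 26.3 to 101 CPM in CPB animals (median 36.0), and 88.3, 72.3, 44.2 and 31.9 CPM in the Linrodostat arm. Control animal 15, at 49.4 CPM, was the only control above the lowest CPB heart, and the next control had 8.70 CPM. The CPB difference was 2.12 ± 0.55 (edgeR, adjusted p = 0.0179), and it was 2.82 without control 15 and CPB 19, the 2 animals at the top of their arms.

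In liver the HMOX1 difference was smaller, with controls at 117 to 357 CPM (median 167), CPB at 221 to 778 (median 337), and Linrodostat at 438, 301, 472 and 319. The arms overlapped, since 3 of 7 CPB livers lay above every control. The log2 fold change was 1.04 ± 0.27 (edgeR, adjusted p = 0.00949). It was 0.73 without control 15 and CPB 19 (adjusted p = 0.0463).

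HMOX1 in lung and ileum did not pass. Lung had 131 to 359 CPM in controls (median 260), 216 to 675 in CPB animals (median 321), and 586, 509, 478 and 210 in the Linrodostat arm, a CPB difference of 0.53 ± 0.26 (edgeR, adjusted p = 0.235). Kidney transcripts were present in some of these lungs, and UMOD in the lung of CPB 19 was 0.945% of that animal's own kidney level. At that share its kidney HMOX1 would amount to 30.3 CPM of the 675 CPM measured. Without the lungs with over 0.5 CPM of UMOD the difference was 0.40 (adjusted p = 0.522). Ileum had 13.4 to 37.4 CPM in controls (median 19.7), 17.6 to 241 in CPB animals (median 28.9), and 73.3, 67.4, 45.1 and 24.0 in the Linrodostat arm. The ileal CPB difference was 1.38 ± 0.47 (edgeR, adjusted p = 0.791), and it fell to 0.48 when the ileum of CPB 19, the library low in FABP6, was left out.

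**Figure D2:**
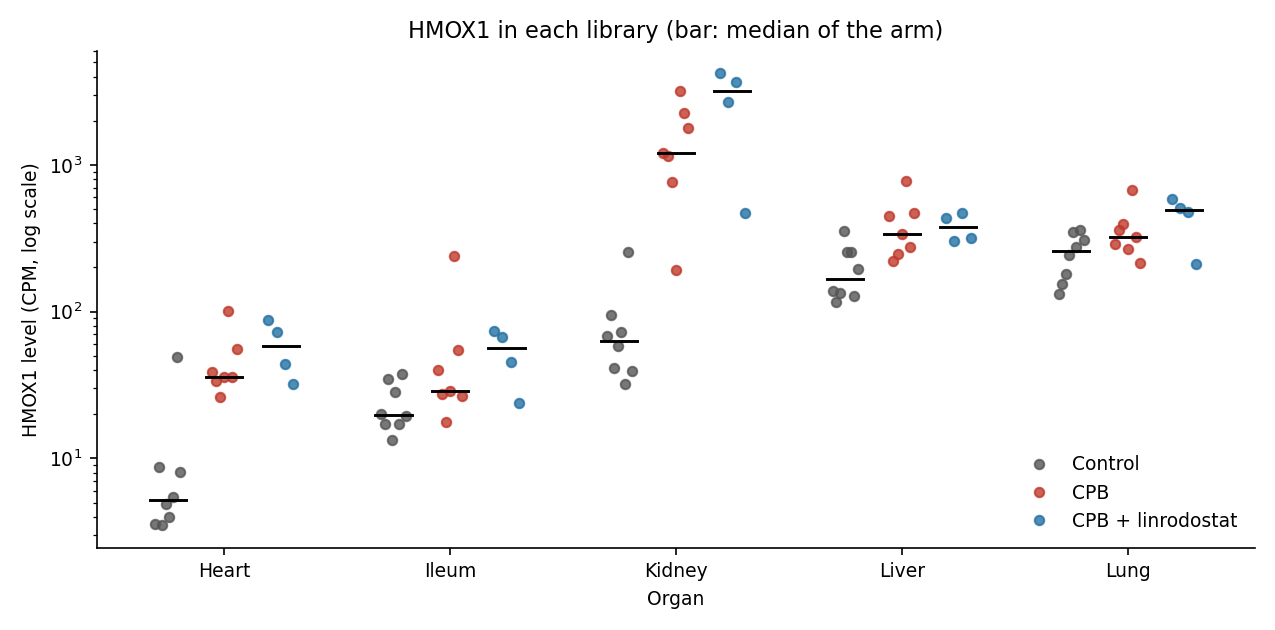
HMOX1 level (CPM, log scale) in each of 95 libraries, by organ and arm; points are animals and bars are medians of the arm. The kidney median is 63.2 CPM in controls, 1200 in CPB and 3190 in CPB with Linrodostat, and the arms overlap in lung.

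Whether the CPB effect on a member differed between organs was tested on all 95 libraries together. By edgeR's F test across the 5 organs, 1 of 10 members passed, HMOX1 (adjusted p = 0.000322), where 12.9% of all genes did. HMOX1 rose more in kidney than in ileum (ileum minus kidney -2.78 ± 0.66 as a difference of log2 fold changes, adjusted p = 0.00831), than in liver (kidney minus liver 3.18 ± 0.66, adjusted p = 0.00152) and than in lung (kidney minus lung 3.66 ± 0.67, adjusted p = 0.00055). These pairs of organs differed for 2.49%, 3.52% and 1.22% of all genes. Heart minus kidney was -2.10 ± 0.66 and did not pass (adjusted p = 0.0567, where 3.24% of genes did). SLC40A1 differed between ileum and liver, by 1.11 ± 0.36 as ileum minus liver (adjusted p = 0.0449), as did 7.41% of genes.

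Each animal gave all 5 organs, so the same test was run with the animal as a replicate block. In that paired fit 3 members passed, HMOX1 (adjusted p = 1.21e-07), SLC40A1 (adjusted p = 0.00763) and CD163 (adjusted p = 0.0108), and 15.6% of all genes passed. Without the block SLC40A1 and CD163 had adjusted p-values of 0.142 and 0.156. The block brought 6 further differences between pairs of organs under the threshold. For HMOX1 these were heart minus kidney (-1.75 ± 0.48, adjusted p = 0.0228), heart minus liver (1.62 ± 0.49, adjusted p = 0.0269) and heart minus lung (1.91 ± 0.48, adjusted p = 0.0202). For CD163 it was heart minus liver (1.59 ± 0.43, adjusted p = 0.0116). For SLC40A1 they were kidney minus liver (1.01 ± 0.29, adjusted p = 0.0285) and liver minus lung (-0.94 ± 0.29, adjusted p = 0.0409). Of 20321 genes tested under the block, 760 differed between heart and kidney, 1502 between heart and liver and 360 between heart and lung. Kidney and liver differed for 875 genes, and liver and lung for 1075. With heart left out as well, HMOX1 and SLC40A1 passed under the replicate block.

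A few animals, picked after their ranks were seen, were the highest or lowest of their arm in several organs. CPB 19 had the highest HMOX1 of its arm in 5 of 5 organs: 3210 CPM in kidney, 778 in liver, 675 in lung, 241 in ileum and 101 in heart. Its ileum was the library low in FABP6, and its lung had 34.1 CPM of UMOD. Control 15 had the highest control level in 4 organs, with 359 CPM in lung, 254 in kidney, 49.4 in heart and 37.4 in ileum, and was the seventh of 8 in liver with 128. In the Linrodostat arm animal 12 was highest in 4 organs and animal 24 lowest in 4. Across the 7 CPB animals, kidney HMOX1 followed heart HMOX1 with a Pearson r of 0.568 (exact permutation p = 0.192) and a Spearman rho of 0.607 (exact permutation p = 0.167). For ileum r was 0.589 (exact permutation p = 0.178) and rho 0.643 (exact permutation p = 0.139). For liver r was 0.417 (exact permutation p = 0.362) and rho 0.571 (exact permutation p = 0.2), and for lung r was 0.405 (exact permutation p = 0.338) and rho 0.25 (exact permutation p = 0.595). In the 8 controls r with kidney was 0.781 for heart (exact permutation p = 0.0541, rho 0.357, permutation p = 0.389) and 0.442 for ileum (exact permutation p = 0.281, rho 0.452, permutation p = 0.267). It was -0.45 for liver (exact permutation p = 0.272, rho -0.476, permutation p = 0.243) and 0.177 for lung (exact permutation p = 0.703, rho 0.119, permutation p = 0.793). None of these 8 relations passed adjustment, with adjusted p-values of 0.414 to 0.703 for r and 0.428 to 0.793 for rho. Without the 2 animals farthest from the kidney median, r was 0.661, 0.767, 0.334 and -0.606 in the CPB arm and 0.146, -0.304, -0.159 and -0.311 in controls, for heart, ileum, liver and lung. The r of heart and ileum in controls, and of lung in both arms, thus changed most without those animals. Few animals then remained and none of the relations had passed, so the change does not show what they rested on.

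**Figure D3:**
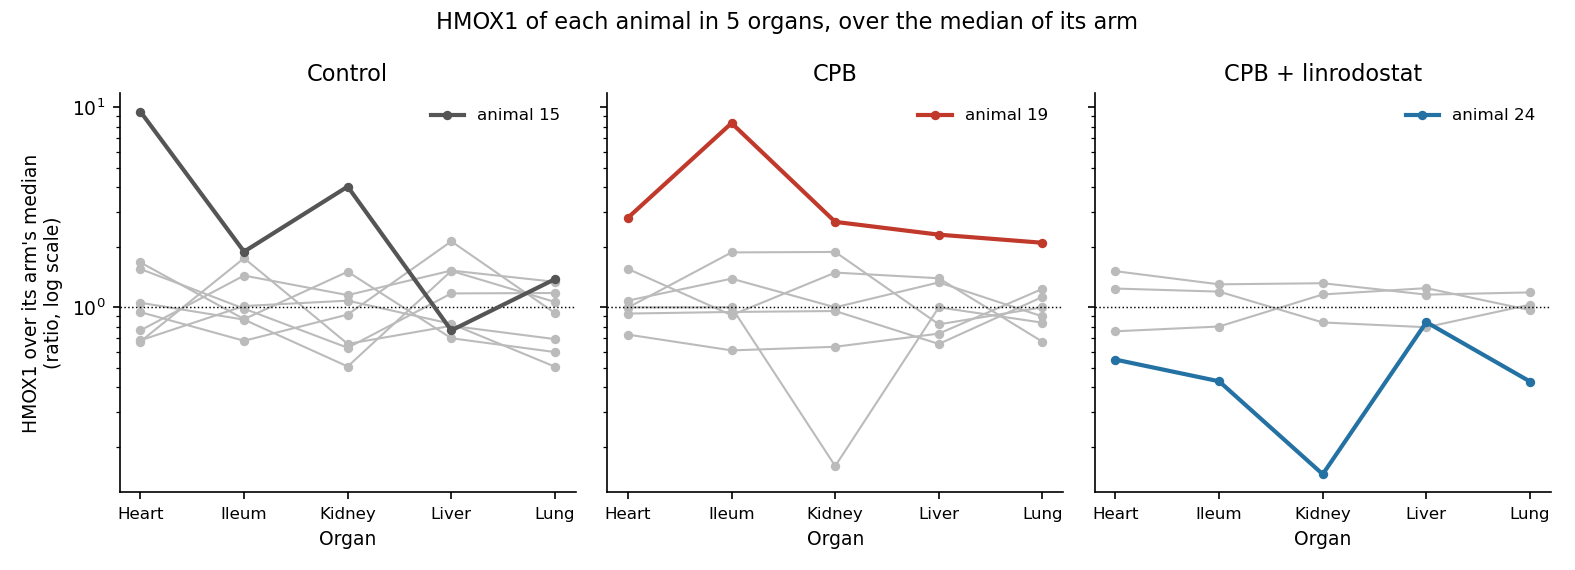
HMOX1 of each animal over the median of its arm (ratio, log scale) in 5 organs; lines join the organs of 1 animal. CPB animal 19, drawn in colour, is the highest of its arm in all 5 organs, control animal 15 the highest of its arm in 4, and Linrodostat animal 24 the lowest of its arm in 4.

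The 2 biliverdin reductases did not pass in any organ. BLVRA, which reduces biliverdin to bilirubin, stood at 10.2 ± 1.14 CPM (SD, n = 8) in control hearts and 7.31 ± 1.21 (SD, n = 7) in CPB hearts, a log2 fold change of -0.45 ± 0.17 (edgeR, adjusted p = 0.0819). In a fit of those 2 arms alone the adjusted p was 0.0453, and without CPB 9 it was 0.0494. In the other organs its difference lay between -0.30 in liver and 0.04 in kidney. Its Linrodostat medians were 25.6 CPM in kidney, 20.4 in liver, 15.1 in lung, 10.1 in heart and 8.22 in ileum, beside CPB medians of 26.3, 18.8, 13.9, 7.53 and 6.94, and the ranges of all 3 arms overlapped in each organ. BLVRB, which also reduces flavins, was 95.7 ± 38.1 CPM in control kidneys, 119 ± 28.3 in CPB kidneys and 155 ± 49.3 in Linrodostat kidneys, with a CPB change of 0.37 ± 0.23 (edgeR, adjusted p = 0.261). Its lowest change was in lung, -0.46 ± 0.21 (adjusted p = 0.194), and its highest in ileum, 0.45 ± 0.32 (adjusted p = 1), where CPB 19 had 32.2 CPM and the next CPB animal 8.02. In liver BLVRB had medians of 161, 137 and 142 CPM in the control, CPB and Linrodostat arms, and in lung 33.3, 19.6 and 30.3.

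CD163, the macrophage receptor for hemoglobin bound to haptoglobin, rose in heart. Control hearts had 30 to 123 CPM (median 47.4), CPB hearts 91.8 to 182 (median 117), and the Linrodostat hearts 480, 204, 118 and 113. Control 26, at 123 CPM, was the only control above the lowest CPB heart. The CPB difference was 1.22 ± 0.31 (edgeR, adjusted p = 0.0145). In bulk tissue more cells of a type and more RNA per cell cannot be told apart. Of 13 macrophage markers tested in heart, 1 rose (CD14, a receptor for bacterial lipopolysaccharide, 0.72 ± 0.19, adjusted p = 0.0167) and 0 fell. Their summed level was 353 to 1280 CPM in control hearts (median 619), 307 to 1180 in CPB hearts (median 461) and 331 to 936 in Linrodostat hearts, and no marker was at 0. Their part in the result was not tested.

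In the other organs CD163 did not pass, with differences of 0.69 ± 0.43 in ileum, -0.12 ± 0.46 in kidney, -0.14 ± 0.28 in lung and -0.17 ± 0.27 in liver. The kidney value rested on control 15, whose kidney had 101 CPM of CD163 where the next control had 26.6, and without it the change was 0.51. Other macrophage markers fell where CD163 did not pass: 6 of 13 in kidney, 7 of 13 in liver (with 1 higher) and 7 of 13 in lung, where 9.86%, 11.3% and 2.62% of all genes fell. In ileum 0 of 13 passed in either direction by edgeR, as did 0.0% of all genes, and 0 of them had an unadjusted p under 0.05. In kidney their summed level was 234 to 1750 CPM in controls, where animal 15 was highest, and 191 to 418 in CPB animals. SIGLEC1, a sialic acid receptor of tissue macrophages, fell from 92.5 ± 28.2 CPM (SD, n = 8) to 35.0 ± 18.6 (SD, n = 7) in liver and from 191 ± 72.4 to 75.0 ± 26.9 in lung. Linrodostat animal 12 had the highest CD163 of its arm in all 5 organs, at 847 CPM in lung, 480 in heart, 275 in liver, 115 in ileum and 62.4 in kidney.

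HPX, the plasma heme scavenger, showed no change that passed. Its livers had 7530 to 11800 CPM in controls, 7480 to 10900 in CPB animals, and 5890, 7760, 7010 and 10100 in the Linrodostat arm. The CPB change in liver was -0.01 ± 0.13 (edgeR, adjusted p = 0.946). Kidney HPX was 4.60 to 45.5 CPM in controls (median 15.7), 11.1 to 35.3 in CPB animals (median 21.3) and 10.8 to 47.9 in the Linrodostat arm (median 25.8), a CPB difference of 0.23 ± 0.40. The highest of these, 47.9 CPM, was Linrodostat animal 12, whose kidney albumin was 0.317% of that in its liver. At that share its liver HPX would amount to 18.7 CPM. Lung HPX stayed at or under 0.522 CPM in every library, and heart HPX at or under 3.07. In ileum HPX was near 0 except in a few libraries, the highest being CPB 9 at 13.3 CPM, control 26 at 9.63 and CPB 6 at 8.26. The albumin in these 3 ilea was 0.154%, 0.0739% and 0.0676% of that in the same animals' livers, and at those shares liver HPX would amount to 14.3, 8.64 and 5.97 CPM. The part of liver transcripts in these kidney and ileum levels was not tested. The heme transporter SLC48A1 did not pass either, with a range of changes from -0.32 ± 0.14 in heart (adjusted p = 0.131) to 0.36 ± 0.16 in kidney (adjusted p = 0.108) and 0.34 ± 0.16 in lung (adjusted p = 0.215). In kidney SLC48A1 had medians of 45.9, 62.6 and 57.8 CPM in the control, CPB and Linrodostat arms, and in lung 43.8, 56.3 and 66.7.

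TFRC, which brings transferrin-bound iron into cells, fell in kidney. Control kidneys had 29.0 to 94.8 CPM (median 68.6), CPB kidneys 16.6 to 40.1 (median 31.9), and Linrodostat kidneys 19.9, 17.8, 21.2 and 39.7. Of the controls 7 of 8 lay above every CPB kidney, and the exception was again animal 15, at 29.0 CPM. The CPB difference was -1.10 ± 0.24 (edgeR, adjusted p = 0.00404). Over the 19 kidney libraries, TFRC and HMOX1 had a Pearson r of -0.893 on log2 CPM, a description in which the arms are shared by both genes. Of the kidney epithelial markers 2 of 9 fell, and of 4 erythroid markers tested 1 fell, SLC4A1, an anion exchanger that kidney collecting duct cells also make (-0.80 ± 0.27, adjusted p = 0.0423). The summed erythroid level was 35.5 to 128 CPM in control kidneys (median 61.2) and 15.1 to 129 in CPB kidneys (median 35.8), with no marker at 0, and its part in the fall of TFRC was not tested. Elsewhere the difference of TFRC was 0.25 in lung, 0.16 in ileum, 0.01 in heart and -0.30 in liver, none of which passed.

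FTL, the ferritin light chain, rose in liver by 0.45 ± 0.14 (edgeR, adjusted p = 0.0206), a fold of 1.36. Control livers had 5960 to 11900 CPM (median 8420), CPB livers 8260 to 12800 (median 11400), and Linrodostat livers 13700, 9270, 11800 and 12400. CPB 19, with the highest HMOX1 of the CPB livers, had the lowest FTL of that arm, 8260 CPM, while the other CPB livers had 11000 or more. By edgeR 0 of 9 hepatocyte markers passed in liver, and 1 had an unadjusted p under 0.05. In the other organs the difference of FTL was 0.36 in kidney, 0.21 in lung, 0.15 in ileum and -0.31 in heart, and none passed. Ferritin is also controlled at translation, which mRNA levels do not show.

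SLC40A1, the iron exporter, did not pass in the CPB arm of any organ. Its livers had 142 to 401 CPM in controls (median 287), 83.5 to 405 in CPB animals (median 122), and 111, 169, 123 and 81.8 in the Linrodostat arm. Of the CPB livers 4 of 7 lay below every control, but CPB 21 had 405 CPM, above every control. The CPB change was -0.60 ± 0.31 (edgeR, adjusted p = 0.163), and without CPB 21 it was -0.93 (adjusted p = 0.0202). HAMP, the hepcidin gene, had 89.3 to 768 CPM in control livers (median 361), 210 to 1430 in CPB livers (median 391), and 2100, 1330, 549 and 973 in the Linrodostat livers. Its CPB change in liver was 0.62 ± 0.44 and did not pass (edgeR, adjusted p = 0.308). In ileum HAMP was 2.34 ± 3.20 CPM (SD, n = 8) in controls, where animal 14 had 10.0, and 0.798 ± 0.558 (SD, n = 7) in the CPB arm, a change of -1.52 ± 0.62 (edgeR, adjusted p = 0.914).

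Outside liver, SLC40A1 ranges overlapped between the arms. Its control, CPB and Linrodostat medians were 59.3, 49.6 and 62.2 CPM in heart, 42.8, 45.1 and 57.6 in kidney, 34.1, 42.2 and 47.1 in lung, and 11.7, 15.0 and 18.7 in ileum. HAMP was at most 1.66 CPM in any heart and at most 0.368 in any lung, with control, CPB and Linrodostat medians of 0.277, 0.357 and 0.228 in heart and of 0.179, 0.200 and 0.257 in lung.

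No member passed in ileum or lung. By edgeR, 2 of 10 members had an unadjusted p under 0.05 in ileum (HMOX1 and HAMP) and 2 of 10 in lung (BLVRB and SLC48A1), and DESeq2 and limma-voom called 0 of 10 in both organs.

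**Figure D4:**
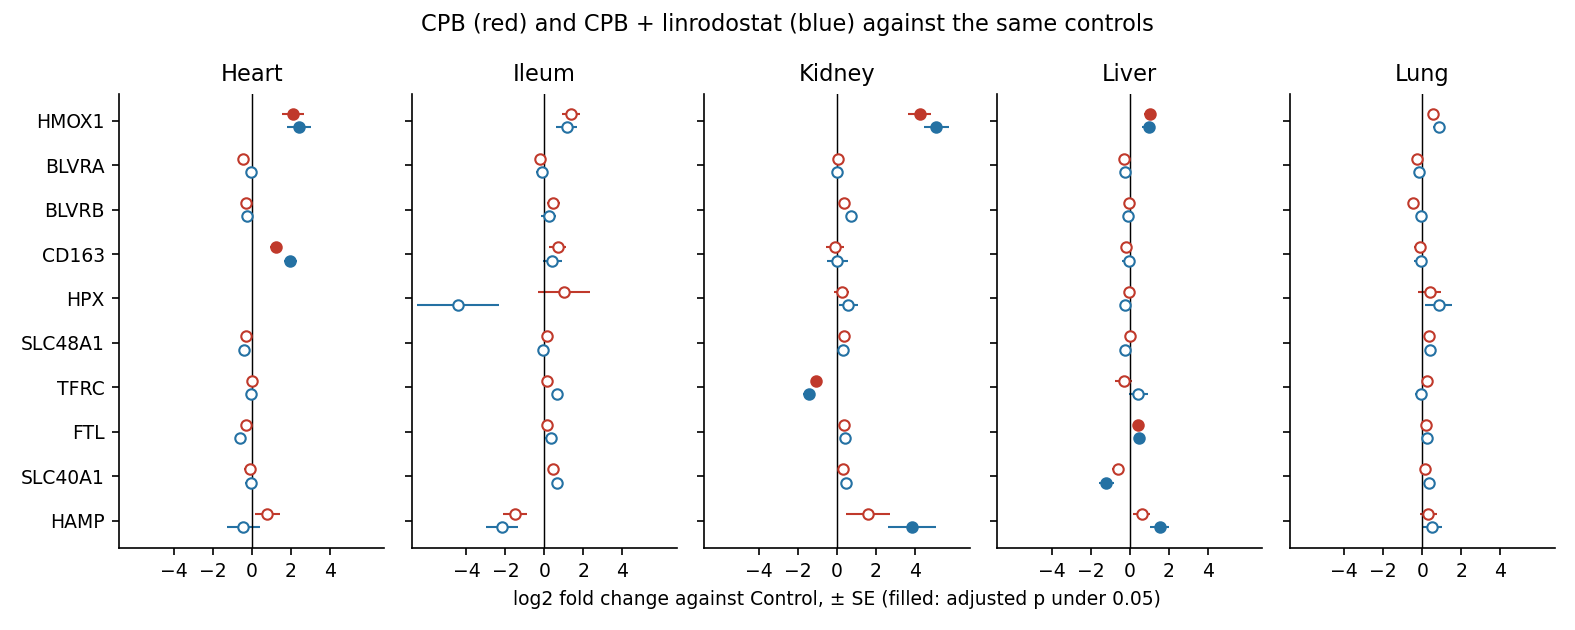
Log2 fold change ± SE of each member against the same controls, for CPB (red, 7 animals) and CPB with Linrodostat (blue, 4 animals), by organ; filled points have an adjusted p under 0.05. HMOX1 in kidney is farthest to the right, at 4.23 and 5.09, and TFRC in kidney lies at -1.10 and -1.43.

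The Linrodostat arm was compared with the CPB arm to see whether the drug changed these genes after bypass. By edgeR 0 of 49 pairs of member and organ passed, 3 had an unadjusted p under 0.05 (BLVRA and CD163 in heart, HPX in ileum), and DESeq2 and limma-voom also called 0. Among all genes 0.0% passed in kidney, heart, lung and ileum and 0.772% in liver. The difference of HMOX1 from the CPB arm was 0.86 ± 0.63 in kidney, 0.32 ± 0.64 in heart, 0.31 ± 0.31 in lung, -0.07 ± 0.33 in liver and -0.24 ± 0.57 in ileum. In kidney 3 of the 4 Linrodostat animals had 2680 CPM or more, and animal 24 had 467. With 4 animals the standard errors are wide, and a p that misses the threshold does not show that the arms were alike.

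Against the controls, which are the same animals as in the CPB comparison, 9 of 49 pairs passed in the Linrodostat arm, 7 higher and 2 lower. Over all genes 1.08% rose and 0.96% fell in heart, 0.151% and 0.0616% in ileum, 11.7% and 8.27% in kidney, 12.9% and 8.88% in liver, and 1.06% and 1.28% in lung. HMOX1 changed by 2.44 ± 0.61 in heart (adjusted p = 0.0459; 2.12 in the CPB arm), by 5.09 ± 0.65 in kidney (adjusted p = 5.07e-05; 4.23 in the CPB arm) and by 0.97 ± 0.31 in liver (adjusted p = 0.0328; 1.04 in the CPB arm). All 4 Linrodostat kidneys lay above every control in HMOX1. CD163 in heart changed by 1.99 ± 0.35 (1.22 in the CPB arm), and without animal 12 by 1.37. TFRC in kidney changed by -1.43 ± 0.30 (-1.10 in the CPB arm) and FTL in liver by 0.50 ± 0.16 (0.45 in the CPB arm).

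Liver was the organ in which the iron exporter and its hormone passed, in the Linrodostat arm against controls. SLC40A1 fell by 1.20 on the log2 scale (SE 0.39, adjusted p = 0.0339), and 3 of 4 Linrodostat livers lay below every control. HAMP rose by 1.54 ± 0.50 (adjusted p = 0.0341), and 3 of 4 lay above every control. These calls were close to the threshold: of the 4 members called in this comparison (HMOX1, FTL, SLC40A1 and HAMP), 0 passed without Linrodostat 12, 0 without Linrodostat 24, 1 without Linrodostat 20 or control 7, and 2 without control 15. The call of HMOX1 in heart was lost in 11 of 12 fits that left out 1 animal and kept without control 15. Some intestinal transcripts were higher in this arm: 4 of 7 intestinal markers tested rose against CPB livers, where 0.772% of all genes passed in either direction. The summed level of the 9 on the list was 1070 to 3800 CPM in Linrodostat livers (median 2640). It was 275 to 8130 in CPB livers (median 1410) and 119 to 3820 in control livers (median 284). The median sum was thus higher than that of controls in CPB livers as well, but not every marker followed it. From control to CPB livers the median of FABP6 went from 16.8 to 6.53 CPM and that of FABP2 from 3.67 to 1.60. For VIL1 the medians were 40.5 and 41.8 CPM. None of the 9 was at 0 in every library of an arm, and their part in these calls was not tested. Macrophage markers moved as well: 8 of 13 fell in Linrodostat against control livers and 1 rose, with a summed level of 2340 to 2650 CPM against 2500 to 5540 in controls and no marker at 0. Macrophages are a main site of ferroportin, and the part of these markers in the fall of SLC40A1 was not tested.

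HAMP in kidney also passed, at 3.85 ± 1.24 (edgeR, adjusted p = 0.0344), and rested on 1 library. The Linrodostat kidneys had 7.17, 0, 0 and 0.0237 CPM for animals 12, 18, 20 and 24, and control kidneys had 0.0167 to 0.344. In the kidney of animal 12 albumin was 0.317% of that animal's liver level, and at that share its liver HAMP would amount to 6.65 CPM. The same kidney had 91.9 CPM of the heart muscle gene MYH7. The source of its HAMP was not tested. Without animal 12 the value was -3.56.

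**Figure D5:**
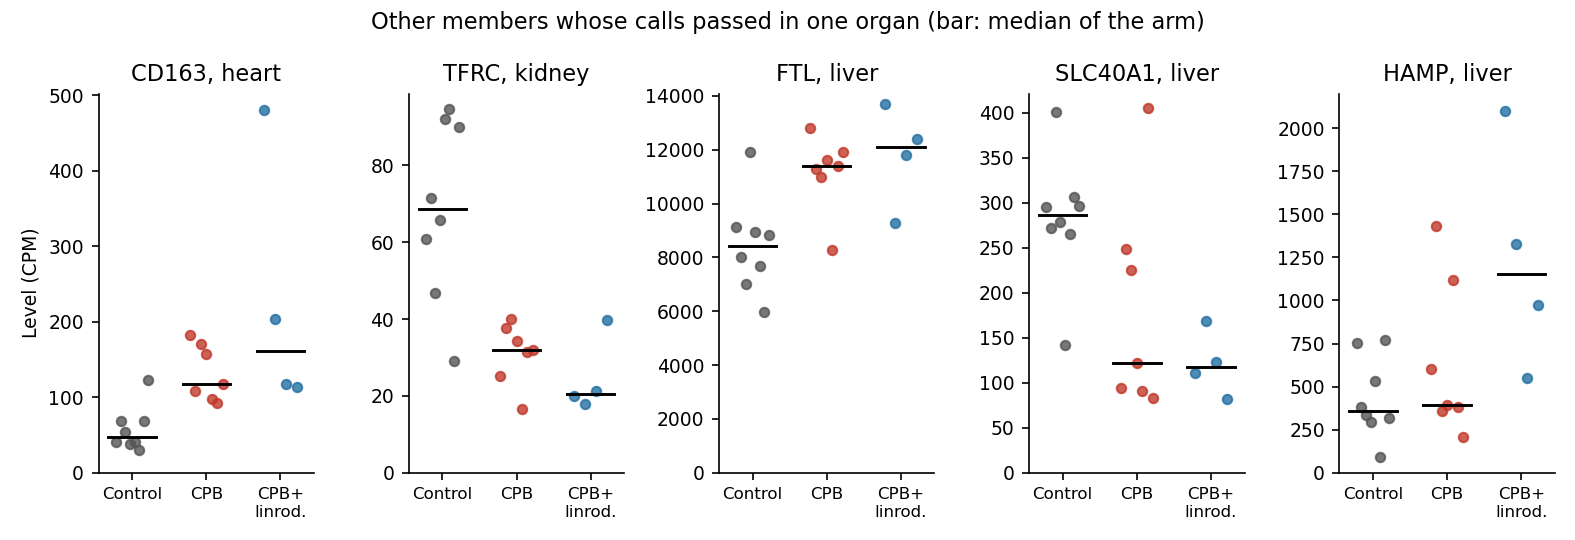
Levels (CPM) of CD163 in heart, TFRC in kidney, and FTL, SLC40A1 and HAMP in liver, in each library of the 3 arms; points are animals and bars are medians. The medians of CD163 are 47.4, 117 and 161 CPM in the control, CPB and Linrodostat arms, and those of TFRC 68.6, 31.9 and 20.5.

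Further genes of heme and iron handling were taken from 6 lists of 72 genes, and 66 of them had a row. In CPB against control 7 rose and 6 fell of 60 tested in heart, 12 rose and 9 fell of 63 in kidney, 12 rose and 7 fell of 63 in liver, 3 rose and 0 fell of 63 in lung, and by edgeR 0 of 64 passed in ileum, where 5 had an unadjusted p under 0.05. As shares of the genes tested, 21.7% were called in heart, 33.3% in kidney, 30.2% in liver and 4.76% in lung. Over all genes 6.39% rose and 5.53% fell in heart, 11.3% and 9.86% in kidney, 15.6% and 11.3% in liver, and 2.08% and 2.62% in lung. The list shares of liver and lung thus stood close to those of all genes.

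In the list of regulators of HMOX1 transcription, 6 of 8 rose in kidney and 0 fell, with a list median of 0.46 where that of all genes was -0.03. BACH1, a heme-sensing repressor of HMOX1, rose from 39.6 ± 5.94 CPM (SD, n = 8) to 73.5 ± 18.8 (SD, n = 7), a change of 0.94 ± 0.16 (edgeR, adjusted p = 0.000526). The small MAF proteins, its binding partners, rose as well, MAFF by 0.91 ± 0.26 and MAFK by 0.84 ± 0.11. The others were MAFG, NFE2L2 and KEAP1. In heart MAFK (0.70 ± 0.22) and MAFG (0.59 ± 0.15) rose. In liver MAFG (0.51 ± 0.18) and EPAS1 (0.50 ± 0.16) rose, while NFE2L2, the activator that competes with BACH1, fell by 0.55 on the log2 scale (SE 0.13).

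Of the heme synthesis genes 3 of 11 fell in heart, among them ALAD by 0.98 and SLC25A38 by 0.47 on the log2 scale. ALAD, the second enzyme of the pathway, went from 48.8 ± 8.48 CPM in control hearts (range 33.6 to 61.3) to 24.3 ± 5.62 in CPB hearts (range 17.5 to 33). In liver ALAS1, the rate-limiting enzyme, rose by 1.44 ± 0.44 (edgeR, adjusted p = 0.0216), from 681 ± 437 to 1800 ± 1140 CPM, and UROD rose by 0.38 ± 0.12 while ALAD fell by 0.45. In kidney FECH, which inserts the iron, rose by 0.32 ± 0.11 and ABCB6 fell by 0.39.

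In the list of hemoglobin and heme clearance and transport, SLC46A1 fell by 1.02 in heart and by 0.61 in liver. FLVCR2 fell by 0.53 in kidney, FLVCR1, a heme exporter, rose by 0.69 ± 0.13 in liver, and ABCG2 rose by 0.63 ± 0.13 in lung. Among genes of iron uptake SLC39A14, a carrier of iron not bound to transferrin, rose by 1.36 ± 0.29 in heart, from 68.9 ± 27 to 173 ± 62.4 CPM, and SLC11A1, an iron carrier of phagocytes, rose by 1.99 ± 0.35 there and by 0.87 ± 0.25 in liver. LRP2 rose by 3.32 ± 0.62 in heart, from 0.970 ± 0.946 CPM, and fell by 0.71 in kidney, its main site. In kidney CYBRD1 and STEAP2, both iron reductases, fell by 0.82 and 0.82, and in liver STEAP3 fell by 1.19 while LCN2, which binds bacterial iron carriers, rose by 1.28 ± 0.38. In lung LTF, the neutrophil iron-binding protein lactoferrin, rose by 1.98 ± 0.49. Neutrophil markers moved in the same organs. In lung 2 of 6 rose, S100A8 by 1.71 ± 0.37 and MMP8 by 2.64 ± 0.65, with a summed level of 159 to 289 CPM against 103 to 206 in controls. In liver, where LCN2 and SLC11A1 rose, 3 of 6 rose (S100A8, S100A12 and MMP8), with a summed level of 12.9 to 41.9 CPM against 15.0 to 32 in controls. No marker was at 0 in every library of an arm, and their part in these results was not tested.

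In the list of iron storage and export, NCOA4, which carries ferritin to lysosomes, rose by 0.58 ± 0.15 in liver, and HEPH, a ferroxidase that works with ferroportin, fell by 1.13 in kidney. In the list of iron sensing, IREB2 and FBXL5 rose in kidney and in liver, by 0.47 ± 0.13 and 0.40 ± 0.14 in liver, and NEO1 fell by 0.53 in kidney and by 0.46 in liver. FURIN, which processes the hepcidin precursor, rose by 0.97 ± 0.16 in heart and by 0.30 ± 0.08 in lung.

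The 5 genes most like HMOX1 over the 19 kidney libraries, by Pearson r of log2 CPM among 13717 genes compared, were NAMPT (0.967), GCLM (0.966), OSER1 (0.946), RNF146 (0.945) and FOSL1 (0.94). NAMPT, an enzyme of NAD salvage, had 59.5 ± 11.5 CPM in control kidneys (SD, n = 8), 185 ± 40.7 in CPB kidneys (SD, n = 7) and 246 ± 53.3 in Linrodostat kidneys (SD, n = 4). GCLM, a subunit of the first enzyme of glutathione synthesis, had 46.1 ± 7.76, 118 ± 29.8 and 149 ± 29.7 CPM in the same order. FOSL1, a subunit of the AP-1 transcription factor, had 0.240 ± 0.244, 7.58 ± 7.75 and 17.5 ± 12.4 CPM. These correlations span the 3 arms, so they hold the difference between arms as well as that between animals. Among the members, BLVRB had an r with HMOX1 of 0.565, SLC40A1 0.494, FTL 0.403 and BLVRA -0.05.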

How the data were processed

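Poly(A) RNA from 95 libraries was sequenced as paired 150 bp reads, per the labels' protocols. The authors deposited 1 table of expected counts (estimated read counts per gene), in which 92.7 to 96.6% of a library's values are whole. Values were rounded. The assembly Sscrofa11.1 and the tools STAR, Salmon, cutadapt, Trim Galore, MultiQC and bcl2fastq are named in the submitters' processing notes, and versions and the annotation release are not given in the sources used here. Replicates are animals, and groups follow the labels.

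Each organ was fitted apart with edgeR 4.0.16 in R 4.3.3 (all 19 libraries, filterByExpr, TMM scaling, robust glmQLFit, 2-sided glmQLFTest, Benjamini-Hochberg adjustment over the genes tested). Printed levels are CPM scaled by TMM over all 95 libraries, and 2 was the prior count for log2 CPM, so a ratio of printed means can differ from the fitted fold change. Sums of marker lists are sums of these CPM. Alternatives were RLE size factors, no filter, sex as covariate, 2 arms only, DESeq2 1.42.0, limma-voom (limma 3.58.1), joint TMM factors and leaving out each animal. Animal numbers pair libraries across organs, since each animal gave 5: after group means were removed, the 10 pairs of organs had median same-animal correlations of 0.105 to 0.24, and 152 of 190 single correlations were above 0.1. The scripts were tested on simulated counts, and no library's values were identical to those of another library of its organ.

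The members, lists and tests were chosen with earlier results of these data known. The rule for named genes takes every member, and members with small differences are given by ranges or medians. From each other list up to 3 genes per organ with the largest log2 fold change among those that passed in CPB against control are named; MAFG, NFE2L2, KEAP1, IREB2, FBXL5 in kidney and the other called genes beyond those were named after their values were seen. Some genes that this rule covers are not reported here. The deposited counts carry depth, and the spread between animals sets the precision. Members matched a RefSeq gene table of Sscrofa11.1 by symbol (10 of 10). No strand setting of the counting is given, so reads of overlapping antisense genes cannot be told apart.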

Additional observations from a re-analysis of the deposited data

Results flagged for a closer look

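Of 149 groups of 1 member, organ and arm that could be checked, 13 had a library far from the others of its group, where chance flags about 1 in 20. CPB 19 accounts for 4 of them: HMOX1 (241 CPM, next 54.4), BLVRB (32.2, next 8.02) and FTL (3380, next 1500) were far above the other CPB animals in its ileum, the library with little FABP6, and FTL was far below them in its liver (8260, next 11000). Control 15 accounts for 4 more: HMOX1 in heart (49.4 CPM, next 8.70), CD163 in kidney (101, next 26.6) and FTL in lung (3390, next 2150) were far above the other controls, and CD163 in liver (81.0, next 148) was far below. In the kidney of control 15 the macrophage marker SIGLEC1 was 84.2 CPM, where the next control had 28.4.

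The others were single libraries. BLVRB was high in the heart of control 10 (30.7 CPM, next 18.6). In liver SLC40A1 was low in control 13 (142, next 265) and HAMP was low in control 14 (89.3, next 296). HAMP was high in the kidney of Linrodostat 12 (7.17, next 0.0237), the library with 251 CPM of albumin. SLC48A1 was low in the lung of Linrodostat 24 (42.2, next 66.4).

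The effect of CPB differed between organs for HMOX1 (edgeR F test, adjusted p = 0.000322), with pairwise differences of log2 fold changes of -2.78 for ileum minus kidney, 3.18 for kidney minus liver and 3.66 for kidney minus lung. It differed between ileum and liver for SLC40A1 (1.11, adjusted p = 0.0449).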

How the results depend on the processing

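The 6 calls of CPB against control (HMOX1 in heart, kidney and liver, CD163 in heart, TFRC in kidney and FTL in liver) kept direction and call in 23 of 23 other settings each, single animals left out included, with highest adjusted p-values of 0.0489, 0.000478, 0.0463, 0.0435, 0.00993 and 0.0485. The calls of Linrodostat against control were less stable: in heart the members called went from 2 to 1 with no filter or with only 2 arms fitted, and were 1 to 2 with an animal left out; in liver they went from 4 to 0 with no filter and were 0 to 4 with an animal left out; in ileum DESeq2 called 1 (HAMP). The cause was not tested. HAMP in kidney turned to -0.19 by limma-voom and ranged from -3.56 to 4.26 with an animal left out, the lowest without Linrodostat 12. Between organs 1 member passed, 3 with the animal as replicate block, 2 with the block and without heart, and 1 to 2 with an animal left out. In the order of organs 23 neighbours differed, and 13 to 18 with a control left out, where fewer pairs allow only a larger smallest p.

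Differences near 0 that did not pass changed sign. With control 15 and CPB 19 left out together (chosen, like the UMOD limit and the fit without heart under the block, after seeing the data), CPB against control was -0.17 for TFRC in heart, -0.034, -0.183 and -0.00576 for BLVRB, FTL and SLC48A1 in ileum, -0.0608 and 0.454 for BLVRA and CD163 in kidney, 0.00981 and -0.00524 for HPX and SLC48A1 in liver, and -0.0514 and -0.00814 for HPX and HAMP in lung. Linrodostat against CPB was then 0.661 in ileum and 0.175 in liver for HMOX1, and by limma-voom 0.219 and 0.026. Without the lungs above 0.5 CPM of UMOD, CD163, HPX, TFRC and FTL in lung were 0.147, -0.767, -0.0445 and -0.029. With joint TMM factors TFRC in heart was -0.0212, BLVRA in kidney -0.0143 and SLC48A1 in liver -0.0283. SLC48A1 in liver was -0.0162 by RLE and by DESeq2, -0.0118 with no filter and -0.00322 with 2 arms. BLVRB in ileum was -0.11 by DESeq2 and CD163 in kidney 0.116 by limma-voom. With an animal left out the ranges were -0.0491 to 0.112 (BLVRA kidney), -0.128 to 0.561 and -0.11 to 0.0544 (BLVRB ileum and liver), -0.317 to 0.507 (CD163 kidney), -0.184 to 0.256 (FTL ileum), -0.0658 to 0.0379 and -0.117 to 0.658 (HPX liver and lung), -0.397 to 0.0415 (SLC40A1 heart), -0.0189 to 0.252 and -0.0751 to 0.1 (SLC48A1 ileum and liver), -0.0967 to 0.108, -0.0045 to 0.262 and -0.455 to 0.0147 (TFRC heart, ileum and liver), and for HMOX1 in Linrodostat against CPB -0.451 to 0.661 in ileum and -0.176 to 0.175 in liver.

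HPX in heart, ileum and lung and HAMP outside liver rested on few counts in many libraries, and 17 and 3 of 95 libraries held none. Differences there are limited by depth.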
